A study of Mus musculus with 4 samples.

Results

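The regions described here are 330 peaks of HA-tagged Fbxl10 that were called in mouse embryonic fibroblasts after induction with doxycycline and that lie at the ends of noncoding genes. They were chosen by the peak calls of both conditions and by distance. Each overlaps no peak of the non-induced list, lies more than 1 kb from every start and end of a protein-coding gene, and lies within 1 kb of a start or end of a gene of any other biotype in RefSeq. Either end of a gene is called a border below. The 330 peaks are 6.21% (exact 95% interval 5.58 to 6.90) of the 5312 peaks found in the induced list alone, and the induced list holds 5497 peaks in all. Of the other induced-only peaks, 2547 lay within 1 kb of a protein-coding border and 2435 lay at no border. Because the calls chose the regions, their counts and scores are a description and no test was made on them.

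The fibroblasts (MEFs) came from a gain-of-function model, and all 4 libraries of the series are labelled as overexpressing HA-tagged Fbxl10, those without doxycycline included. Induction was by 1 µg/ml doxycycline for 48 h, and the non-induced cells received none. An HA antibody was used for the precipitation, and each of the 2 ChIP libraries has an input library, which was not analysed here. One peak list per ChIP library was analysed, so there is no replicate and no measure of spread between cultures. The protocol mentions 3 independent samples. Their relation to the 2 lists, the promoter that drives the transgene and the number of animals behind the cells were not given in the sources used here. Peak lists hold no expression values, so the labelled cell type was not checked against markers. Read depth is unknown. Intervals of shares are exact, at 95%, and cover nothing but counting error.

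Fbxl10, also called Kdm2b, is a histone demethylase with a CXXC zinc finger that binds unmethylated CG dinucleotides, and it brings a Polycomb repressive complex to CpG islands. CpG islands lie at most promoters of widely used and developmental genes, and they also lie at part of the promoters of long noncoding RNAs (lncRNAs). Noncoding genes are made by different machines. RNA polymerase II makes lncRNAs and most microRNA (miRNA) precursors, whereas RNA polymerase III makes transfer RNAs (tRNAs), 5S ribosomal RNA and 7SK RNA from short genes, many of them with promoter elements inside or close to the gene.

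The 6 promoter windows printed here show what lies under these peaks at lncRNA starts. Each runs from 250 bases before to 50 bases after the annotated start and comes from RefSeq, assembly GRCm38.p6 (coordinates of mm10), printed 5′ to 3′ on the gene's strand with every CG in capitals. The first 5 belong to the highest-scoring peaks that cover a whole window, and the last has the fewest CGs of the 46 windows that were covered whole, with 1 window per peak considered. Their positions are chr2:18026999-18027298 (Gm17762, plus strand), chr10:42274760-42275059 (Gm38485, minus), chr9:78175664-78175963 (C920006O11Rik, plus), chr5:151368425-151368724 (1700028E10Rik, plus), chr1:42713405-42713704 (Pantr2, minus) and chr6:88939671-88939970 (Gm36354, plus).
Gm17762: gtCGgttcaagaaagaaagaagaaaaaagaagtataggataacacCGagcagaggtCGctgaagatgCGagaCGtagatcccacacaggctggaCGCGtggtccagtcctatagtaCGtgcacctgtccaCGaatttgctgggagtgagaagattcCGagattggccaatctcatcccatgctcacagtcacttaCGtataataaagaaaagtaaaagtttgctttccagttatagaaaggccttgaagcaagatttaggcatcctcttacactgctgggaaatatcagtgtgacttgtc
Gm38485: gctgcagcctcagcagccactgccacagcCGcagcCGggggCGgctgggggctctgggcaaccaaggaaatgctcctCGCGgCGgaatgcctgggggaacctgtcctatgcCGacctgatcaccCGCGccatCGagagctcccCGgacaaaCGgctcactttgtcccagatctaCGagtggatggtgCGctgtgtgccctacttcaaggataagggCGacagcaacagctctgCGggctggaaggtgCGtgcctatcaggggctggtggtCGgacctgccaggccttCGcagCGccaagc
C920006O11Rik: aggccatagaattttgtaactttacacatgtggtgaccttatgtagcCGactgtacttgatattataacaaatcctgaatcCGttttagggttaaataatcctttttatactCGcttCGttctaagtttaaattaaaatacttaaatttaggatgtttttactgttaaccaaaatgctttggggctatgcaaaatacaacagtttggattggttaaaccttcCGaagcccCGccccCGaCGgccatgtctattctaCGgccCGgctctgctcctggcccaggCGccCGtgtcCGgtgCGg
1700028E10Rik: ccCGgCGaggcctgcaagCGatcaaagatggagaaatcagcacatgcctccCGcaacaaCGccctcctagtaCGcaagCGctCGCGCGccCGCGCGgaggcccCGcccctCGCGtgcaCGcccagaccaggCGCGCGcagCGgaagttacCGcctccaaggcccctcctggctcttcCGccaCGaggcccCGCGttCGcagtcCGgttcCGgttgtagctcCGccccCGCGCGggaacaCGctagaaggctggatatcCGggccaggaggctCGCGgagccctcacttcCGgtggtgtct
Pantr2: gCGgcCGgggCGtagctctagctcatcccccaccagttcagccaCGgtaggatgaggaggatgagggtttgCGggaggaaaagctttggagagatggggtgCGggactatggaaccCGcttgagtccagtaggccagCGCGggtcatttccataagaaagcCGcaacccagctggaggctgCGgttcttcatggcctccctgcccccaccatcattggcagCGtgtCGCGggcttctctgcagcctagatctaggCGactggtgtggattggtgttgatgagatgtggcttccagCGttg
Gm36354: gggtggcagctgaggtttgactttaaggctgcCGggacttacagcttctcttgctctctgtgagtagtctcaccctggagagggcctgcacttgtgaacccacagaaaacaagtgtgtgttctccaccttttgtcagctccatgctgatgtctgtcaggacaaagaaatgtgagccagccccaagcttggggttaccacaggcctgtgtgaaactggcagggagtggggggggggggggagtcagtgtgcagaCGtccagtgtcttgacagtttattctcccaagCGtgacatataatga
The window of 1700028E10Rik holds 38 CGs and has a GC content of 69.7%. Gm38485 has 20 CGs, Pantr2 16, C920006O11Rik 14 and Gm17762 11. The window of Gm36354 holds 3 CGs, so a peak of score 56.97 was called over a promoter with few CGs.

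At miRNA genes the sequences that matter are the mature RNAs, since bases 2 to 8, the seed, pair with target messages. Of the 12 miRNA genes at these peaks 11 have a mature sequence in the RefSeq table (assembly GRCm38.p6), with 18 mature sequences and 17 seeds among them. Those shown are the 6 whose families are best known, with the seed in capitals. None of them lies under its peak, as their genes lie 91 to 877 bp from it. The miRNA genes that a peak overlaps, Mir1905, Mir6991 and Mir5103, are not shown. Shown are miR-196b-5p (chr6:52230129-52230150, minus strand), miR-193a-3p (chr11:79712009-79712030, plus), miR-193b-3p (chr16:13449570-13449591, plus), miR-199b-3p (chr2:32318524-32318545, plus), let-7i-5p (chr10:122985698-122985719, minus) and miR-125b-5p (chr9:41581940-41581961, plus).
mmu-miR-193a-3p: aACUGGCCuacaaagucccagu
mmu-miR-193b-3p: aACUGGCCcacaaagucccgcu
mmu-miR-196b-5p: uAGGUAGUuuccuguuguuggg
mmu-miR-199b-3p: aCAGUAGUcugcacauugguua
mmu-let-7i-5p: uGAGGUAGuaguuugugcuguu
mmu-miR-125b-5p: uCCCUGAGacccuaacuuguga
The 3p products of Mir193a and Mir193b share the seed ACUGGCC and are the only 2 mature sequences with it in the table. No other seed is shared among these 18 sequences. The genes lie on chromosomes 11 and 16 and have a peak each. The let-7i-5p seed GAGGUAG stands in 11 mature sequences of the table, the let-7 family, of which this is the only one at a peak.

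The 330 peaks touched 392 of the 28080 noncoding genes of the annotation, which is 1.4%. By the same rule the peaks found in the non-induced list alone touched 324 genes (1.15%), through 314 of 10345 peaks (3.04%, 2.71 to 3.38). Although the induced list is the smaller of the 2, the share of its peaks at noncoding borders alone was the larger, 6.21% against 3.04%. This order held with a border window of 500 bp but not with 5 kb, where the shares were 8.09% and 9.33%. The window also sets the distance kept from coding borders, so the 5 kb setting leaves out every peak within 5 kb of one. Which of the 2 changes turned the order was not tested. Both shares are taken over all peaks found in 1 list alone, while the rule bars those at coding borders. With the 1 kb window those were 47.9% of the induced-only and 2.82% of the non-induced-only peaks. Shares among the remaining peaks were not computed. With peaks near coding borders counted too, 880 of the noncoding genes (3.13%) had an induced-only peak, against 2902 of 21900 protein-coding genes (13.3%). Of the 392 noncoding genes 13 also had a non-induced-only peak within 1 kb.

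By biotype, lncRNA genes stood at most of the peaks, with 239 of the 330 (72.4%). The remaining kinds were tRNA genes at 47 peaks (14.2%), pseudogenes at 38 (11.5%), small RNA genes at 21 (6.36%) and miRNA genes at 11 (3.33%). A peak near genes of several kinds is counted under each, and 24 peaks were near more than 1 biotype. There were 278 peaks near 1 gene and 52 near more than 1, with at most 5 genes at a peak. The segments of antibody and T cell receptor genes and other rare classes, 522 genes together, had 0 peaks. By a limit of 3 counts this allows a share of up to 0.575%, and the exact interval runs up to 0.704%.

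**Figure D1:**
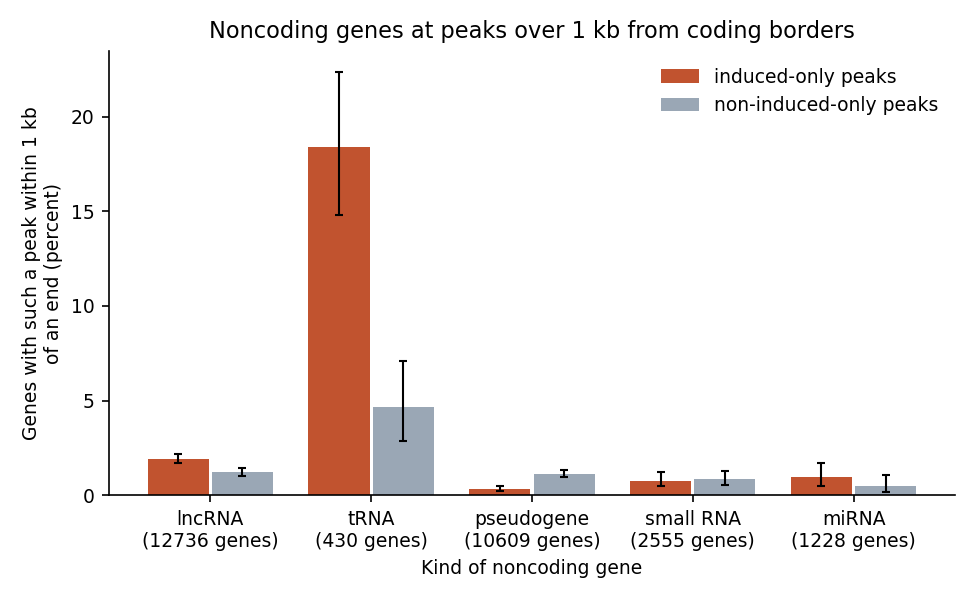
Percent of the annotated genes of each kind that have a start or end within 1 kb of a peak lying over 1 kb from coding borders, for induced-only and non-induced-only peaks; bars are shares and lines are exact 95% intervals. tRNA genes (430, of which 22 are mitochondrial) stand highest with 18.4% against 4.65%, lncRNA genes have 1.92% against 1.22%, and pseudogenes have 0.349% against 1.14%; the non-induced-only list is the longer, and the shares do not allow for that.

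The plot of genes by kind sets these numbers against the size of each class. Of 12736 lncRNA genes, antisense RNAs included, 244 were at such a peak (1.92%, 1.68 to 2.17), against 155 (1.22%, 1.03 to 1.42) at non-induced-only peaks. Of 10609 pseudogenes 37 were touched (0.349%, 0.246 to 0.480) against 121 (1.14%, 0.947 to 1.36) in the non-induced list, of small RNA genes 20 of 2555 (0.783%) against 22 (0.861%), and of miRNA genes 12 of 1228 (0.977%) against 6 (0.489%). These shares of genes do not allow for the length of the lists, 5312 induced-only and 10345 non-induced-only peaks. Per peak, 4.499% (3.96 to 5.09) of the induced-only peaks lay at lncRNA borders against 1.49% (1.26 to 1.74) of the non-induced-only peaks, and 0.885% (0.651 to 1.17) against 0.126% (0.0669 to 0.215) at tRNA borders. For these kinds the intervals do not overlap. At pseudogenes the shares per peak were 0.715% (0.507 to 0.981) and 1.15% (0.954 to 1.37), at small RNA genes 0.395% and 0.222%, and at miRNA genes 0.207% and 0.0580%, all with overlapping intervals. The base of each share includes peaks at coding borders, which the rule bars, 47.9% of the induced-only and 2.82% of the non-induced-only peaks. Shares among the remaining peaks were not computed, so these values do not settle the order of the lists at pseudogenes. A peak can touch several neighbours, so genes are not independent counts and the intervals are too narrow for clustered ones.

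A peak carries a score from the authors' peak caller, used here only to rank peaks within a list. The 330 peaks had scores from 50.2 to 3100 with a median of 67.8 (interval of the median 64.9 to 71.6), and 73 of them (22.1%) reached 100. Induced-only peaks at coding borders had a median of 78.5 (76.4 to 80.2) with 29.8% at 100 or more. Induced-only peaks at no border had a median of 59.6 (59.0 to 60.4) with 10.1% at 100 or more. In score, then, the peaks at noncoding borders lay between those at coding borders and those at no border, which may still lie inside genes, and the intervals of the 3 medians do not overlap. Widths had the same order, with medians of 749 bp at noncoding borders, 862 bp at coding borders and 669 bp at no border. Score and width went together across the 330 peaks (Spearman's rho 0.694), and both come from the same call on the same library.

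**Figure D2:**
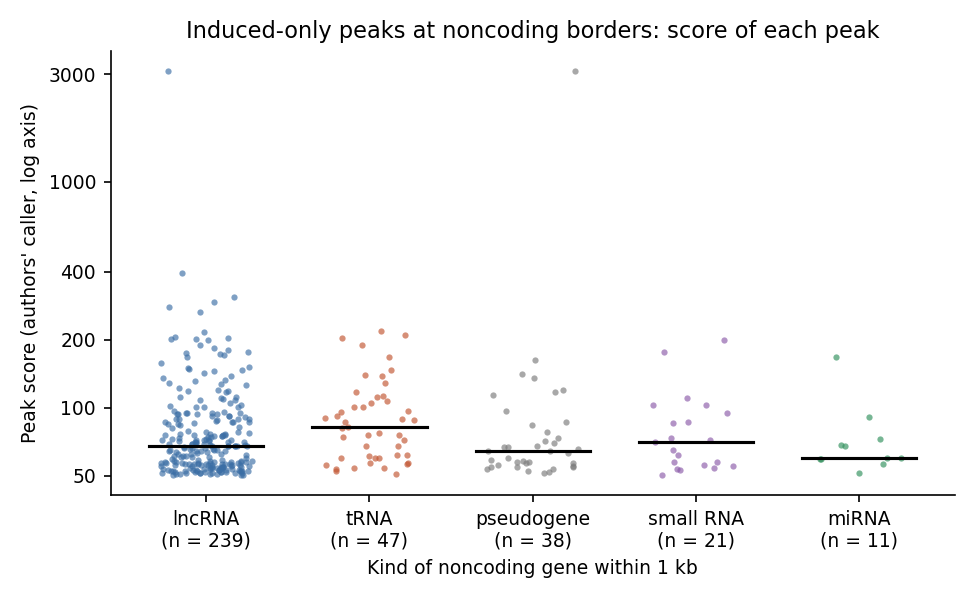
Score of each of the induced-only peaks at noncoding borders (log axis), by the kind of noncoding gene within 1 kb; points are peaks, black lines are medians, and a peak near several kinds is drawn under each. The medians are 67.6 for lncRNA, 82.0 for tRNA, 64.5 for pseudogenes, 70.5 for small RNA and 60.0 for miRNA, and the point at 3100 under lncRNA and pseudogene is the same peak.

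The peak with the highest score, 3100, lay at chr17:39842653-39849083 and was 6431 bp wide. It covers Rn18s-rs5, annotated as a pseudogene related to 18S ribosomal RNA, and the low-coordinate end of the lncRNA gene AY036118. Ribosomal RNA genes exist in many near-identical copies, and the treatment of reads that match several places was not given in the sources used here, so this value is uncertain. The next peak had a score of 392.73, and without the ribosomal locus no peak of the set exceeds it. The non-induced list also held 1 peak far above its others by the same rule, at 2478.83 over the pseudogenes Gm10222 and Gm10925 on chromosome 1, while its next peak had 198.56.

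Next in rank among the lncRNA genes stood a peak over the start of Gm17762, 509 bp from A930004D18Rik on chromosome 2, with the score of 392.73. Its nearest protein-coding gene is Skida1, 16247 bp away, and a further induced peak lay 794 bp from it. LOC115490435 on chromosome 6 followed with 308.29. Gm38485 had 292.36, in a peak that covers its start and lies inside Foxo3, a forkhead transcription factor gene, 1105 bp from that gene's border. The window of Gm38485 printed above is therefore also sequence of Foxo3. Gm4123 had 278.63 inside Spen, a transcriptional repressor gene, 1305 bp from its border. Dlx1as, the only antisense RNA gene at a peak, had 263.92 over its low-coordinate end inside Dlx1, a homeobox gene of forebrain and limb development.

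Among the following lncRNA peaks several also stood beside genes of transcription factors or small RNAs. 1110002J07Rik had 216.29 at 455 bp from the gene and 87312 bp from a coding border, and A930012L18Rik had 205.92 inside Mcc. The peak at 4921507G05Rik (202.92) also covers a tRNA gene, and 9930014A18Rik (201.99) lies inside Lratd2. Gm52599 had 201.64 on chromosome 3, and C920006O11Rik shares its peak of 200.17 with Rn7sk. By the distance rule 5930403L14Rik (184.06), Gm38708 (180.66) and Gm26688 (172.02) count as noncoding borders, yet their peaks lie inside Prdm16, Gata2 and Tfap2a, 3 genes of transcription regulators. These last 3 genes and the coding neighbours were singled out after their values were seen.

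In all, 120 of the 330 peaks (36.4%) lay inside the body of a protein-coding gene. The nearest coding border was a median of 10.5 kb away, 106 peaks (32.1%) were within 5 kb of one, and 49 were more than 50 kb from any. At lncRNA borders 102 of 239 peaks were inside a coding gene, and at tRNA borders 1 of 47. For peaks within a coding gene, binding that belongs to the coding gene and binding that belongs to the noncoding gene cannot be told apart from distance alone.

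The strand of lncRNA genes was taken from the promoter table, which covers 194 of the 244 genes and 201 pairs of gene and peak. In 165 pairs (82.1%, 76.1 to 87.1) the peak lay within 1 kb of the gene's start, in 148 of these only there, and in 36 only at the end. Among the non-induced-only peaks found by the same rule 51 of 118 pairs (43.2%, 34.1 to 52.7) were at the start. In these lists the share of pairs at the start was thus larger among induced-only peaks, and the intervals do not overlap. Some genes and peaks enter more than 1 pair, and pairs are not replicates of a condition. The intervals therefore cover counting error only and are no test of induction. Peaks at starts had a median score of 69.0 and peaks at ends alone 60.8.

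**Figure D3:**
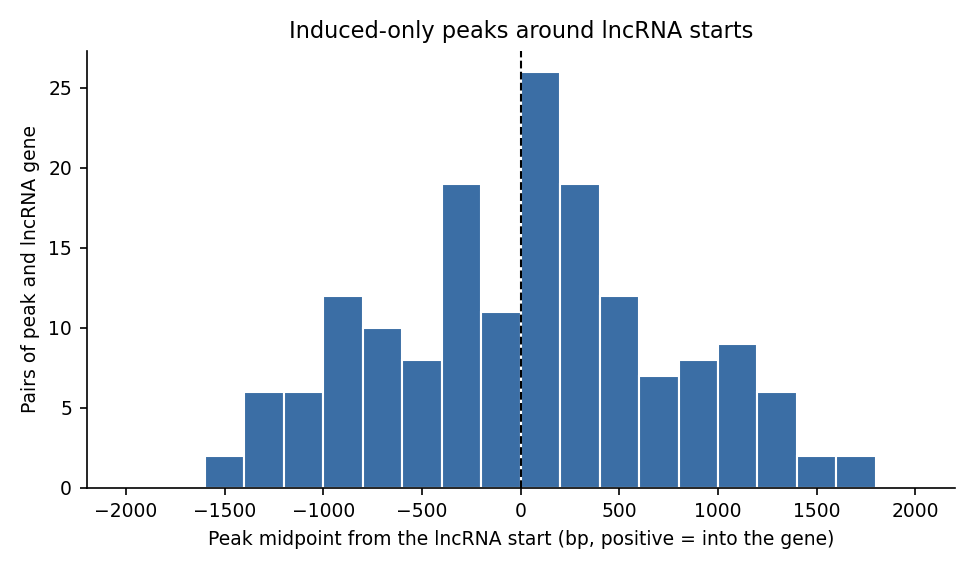
Distance of the peak midpoint from the annotated start of the lncRNA gene for the 165 pairs at a start, in 200 bp bins, positive into the gene; bars are counts of pairs. The midpoints have a median of 39 bp, with 51.5% within 500 bp. Only peaks within 1 kb of the start were taken, so a centre near the start follows largely from that choice.

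The midpoints of these 165 pairs lay around the start without a clear side. The pairs were chosen by a start within 1 kb of the peak on either side, so a centre near the start is largely set by that choice. Their median was 39 bp into the gene, the middle portion of the distribution ran from 460 bp before the start (-460 bp) to 513 bp after it, and 54.5% were downstream. The histogram of midpoints shows its highest bar just inside the gene. Over all 330 peaks, which the rule keeps within 1 kb of a noncoding border, the median distance from the peak's edge to that border was 63 bp. Among them 148 peaks (44.8%) held a border.

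CG content was not part of the choice of peaks, and it differed between the promoters they covered and others. A total of 103 promoter windows of 94 lncRNA genes overlapped these peaks by at least 1 bp and are called windows under them, and they held a median of 15 CGs (13 to 19) in 300 bases, against 4 over all 11588 lncRNA windows. Their median GC content was 57.7% against 48.3%. A window was called CG-rich when its GC content exceeded 50% and it held over 0.6 of the CGs expected from its C and G content. By that rule 55 of the 103 windows (53.4%, 43.3 to 63.3) were CG-rich, against 11.97% (11.4 to 12.6) of all lncRNA windows. All lncRNA windows include those close to coding borders, where the rule admits no peak. The share without them was not computed. Under the non-induced-only peaks of the same kind lay 20 windows with a median of 2 CGs, and 0 of them were CG-rich, with an exact interval up to 16.8%.

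**Figure D4:**
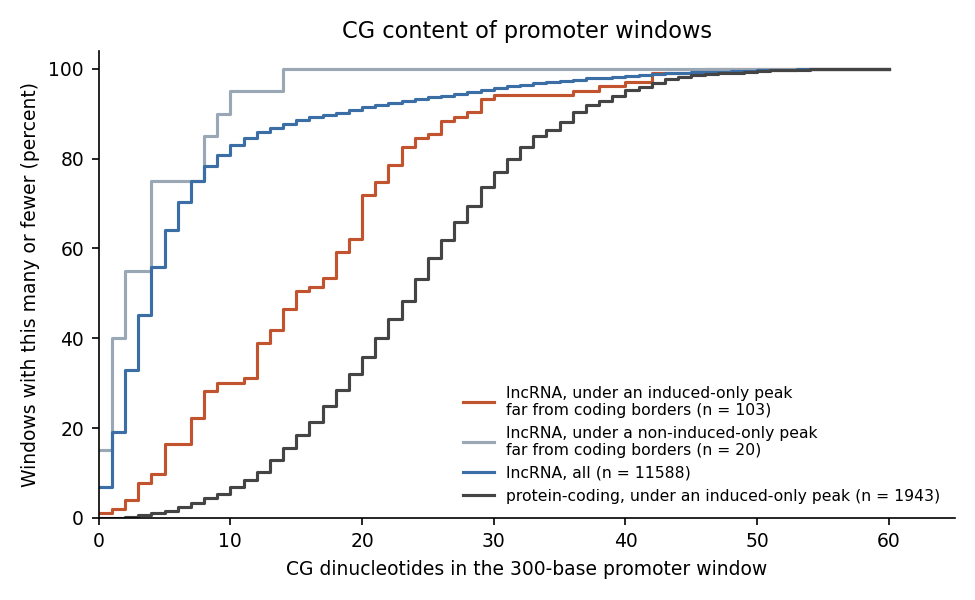
Cumulative percent of 300-base promoter windows that hold a given number of CG dinucleotides or fewer. Curves are for lncRNA windows under an induced-only peak over 1 kb from coding borders, under a non-induced-only peak by the same rule, and for all lncRNA windows. A further curve is for protein-coding windows under an induced-only peak. In the plot, far from coding borders means no more than over 1 kb from them. The lncRNA windows under induced-only peaks (median 15) lie between all lncRNA windows (median 4) and the protein-coding windows (median 24), and those under non-induced-only peaks (median 2) lie lowest.

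Read the other way, 55 of the 1387 CG-rich lncRNA windows (3.97%, 3.001 to 5.13) lay under one of these peaks, against 48 of the 10201 others (0.471%, 0.347 to 0.623). The intervals do not overlap. Both totals include windows close to coding borders, where the rule admits no peak. Protein-coding windows under induced-only peaks were richer still, with a median of 24 CGs and 82.1% CG-rich among 1943 windows. Over all 21263 protein-coding windows the median was 13 and 44.9% were CG-rich. When the limit on coding genes was dropped, so that lncRNA windows close to coding borders were counted as well, 74.0% were CG-rich. The share among the windows close to coding borders alone was not computed. C920006O11Rik shows how the rule can miss a window, as its 14 CGs are 1.01 times the number expected but its GC content is 43.0%.

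lncRNA genes differed in their share by the kind of name they carry. RIKEN clone genes had 67 of 1788 at a peak (3.75%, 2.92 to 4.73) and model genes, those named Gm or LOC with a number, 151 of 10438 (1.45%, 1.23 to 1.69). Genes with another given name had 15 of 254 (5.91%, 3.34 to 9.55). In the non-induced list the same 3 kinds had 1.23%, 1.22% and 0.787%. Genes named as opposite strand or antisense of another gene had 5 of 225 (2.22%). Once peaks within 1 kb of a coding border were counted too, the shares were 8.78% for RIKEN clone genes, 3.69% for model genes, 11.4% for other names and 11.1% for opposite-strand names.

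As a measure for the lists that follow, 1.92% of all lncRNA genes had a peak of this set and 604 of 12736 (4.74%) had any induced-only peak. Of 35 noncoding genes on a list of lncRNAs at developmental loci, 5 had a peak of this set, 11 had any induced-only peak and 0 had a non-induced-only peak. After Dlx1as came Pantr2, beside the POU transcription factor gene Pou3f3, with 171.66. Otx2os1, on the opposite strand of the homeobox gene Otx2, had 132.27, and a further peak of 66.54 lay 553 bp from its border. Dlx4os inside Dlx4 had 56.97. Hotair, a lncRNA of the Hoxc cluster known for its ties to Polycomb, had 54.6 at 660 bp from its border, low in the range of scores. The other 6 genes of the list with an induced-only peak, among them Wt1os (154.88) and Tbx3os1 (152.86), were left out by the coding limit. The lists were written with earlier results of these data known, and their counts are descriptions.

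Hosts of small nucleolar RNAs, which are widely expressed lncRNA genes, had 4 of 21 members at these peaks and 8 at any induced-only peak, where all lncRNA genes had 1.92% and 4.74%. Snhg17 had 76.6, Snhg8 73.4, Dancr 54.27 and Snhg5 50.62. Of 17 noncoding hosts of miRNAs 4 had a peak. These were Mir22hg (84.21), Dleu2, host of miR-15a and miR-16-1 (67.61), Carmn, host of miR-143 and miR-145 (55.88), and Mir99ahg (52.04). Among 22 noncoding RNAs of general function 3 had one, namely Terc (102.49), Lncpint, a p53-regulated lncRNA (83.76), and Morrbid, a regulator of myeloid cell survival (65.41). Among 13 genes listed for p53 and growth control there were 2, Mir22hg and Lncpint. Of 16 noncoding RNAs of imprinting and X inactivation, H19, Meg3 and Xist among them, 0 had an induced-only peak of any kind, which allows a share of up to 18.8% and so cannot be told from the 4.74% of all lncRNA genes.

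tRNA genes were touched more often than the other kinds of noncoding gene compared in the plot of genes by kind. Of 408 nuclear tRNA genes 79 (19.4%, 15.6 to 23.5) lay at a peak of this set, against 20 (4.90%, 3.02 to 7.47) at non-induced-only peaks, and 1.4% of all noncoding genes. With peaks near coding borders included, 109 (26.7%, 22.5 to 31.3) had an induced-only peak and 21 (5.15%) a non-induced-only peak. The 47 tRNA peaks had a median score of 82.0, 16 of them (34.0%) reached 100, and the highest had 219.25. The non-induced list had 13 tRNA peaks by the same rule. tRNA genes have near-identical copies across the genome, and for the same reason which copy a peak belongs to is uncertain where copies and their flanks are alike.

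The top tRNA peak lay at chr13:22028554-22029840 over n-TIaat7, an isoleucine tRNA gene, and 260 bp from n-TTagt1, a threonine tRNA gene. Its nearest coding gene is the histone gene H2ac12, 5282 bp away. The next, with 210.08, lay on chromosome 11 beside n-TLaag6 (419 bp) and n-TVaac7 (765 bp), genes for leucine and valine tRNAs, without covering either. n-TIaat6 on chromosome 12 had 202.92 and n-TQttg6, a glutamine tRNA gene on chromosome 11, had 189.25, both in peaks that also touch lncRNA genes. n-TAagc18, an alanine tRNA gene on chromosome 13, had 167.04. A peak 3065 bp wide at chr1:171070333-171073397 reached 5 tRNA genes, among them n-TDgtc7 for aspartate, with 146.24. These 6 peaks lay on 4 chromosomes and touched tRNAs of different amino acids.

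All 20 amino acids and 36 of the 48 anticodons in the annotation had a gene at one of the peaks. The shares ran from 7 of 16 proline genes (43.8%, 19.8 to 70.1) to 1 of 56 cysteine genes (1.79%, 0.0452 to 9.55). Of the cysteine genes 48 lie on chromosome 6, where 0 of 53 tRNA genes were touched. With the cysteine genes left out 78 of 352 (22.2%) were touched. Most of the intervals overlap, so no full order among amino acids can be read from these counts. The cysteine interval lay below those of glycine, isoleucine, leucine, proline and glutamine and overlapped those of the other amino acids.

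**Figure D5:**
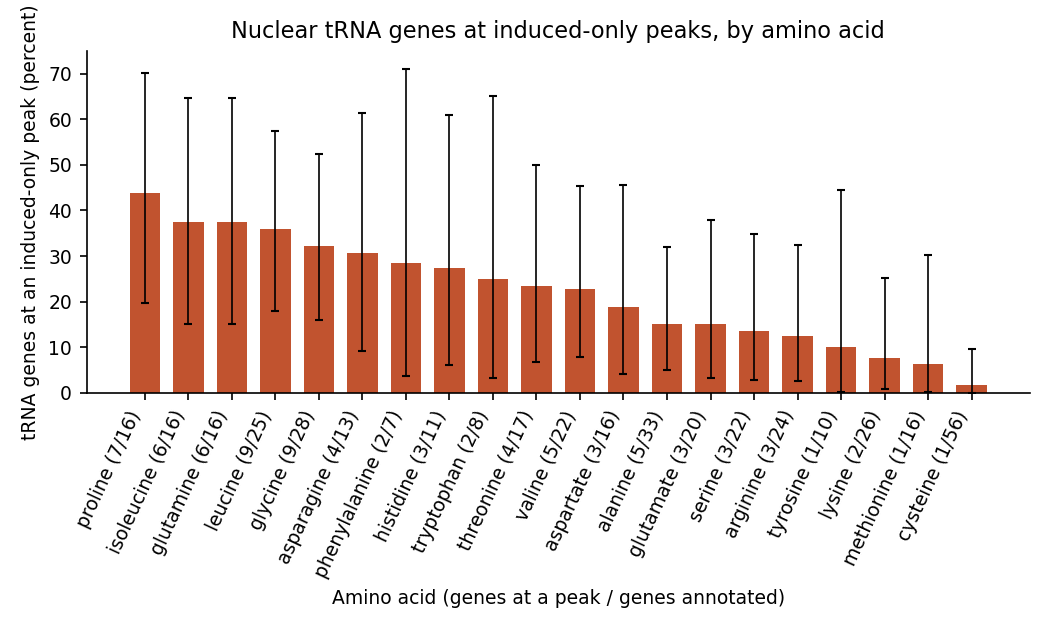
Percent of nuclear tRNA genes of each amino acid at an induced-only peak over 1 kb from coding borders, with the numbers of genes under each bar; bars are shares and lines are exact 95% intervals. Proline (7 of 16), isoleucine and glutamine (6 of 16 each) stand highest and cysteine (1 of 56) lowest, and most of the intervals are wide and overlap.

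The tRNA peaks fell into 26 loci more than 100 kb apart. There were 28 peaks at 1 tRNA gene and 19 at more than 1, and 26 peaks overlapped a tRNA gene while 21 lay beside one. Chromosome 13 held 16 of the 47 peaks and 27 of its 105 tRNA genes were touched, chromosome 3 held 8 peaks with 12 of 40 genes, and chromosome 11 held 6 peaks with 10 of 52. Of the 47 peaks 13 (27.7%) lay within 100 kb of a replication-dependent histone gene, whereas of all 330 peaks, these 47 included, 14 did (4.24%). The share of all tRNA genes that lie so near a histone gene was not computed. These counts therefore cannot set the touched tRNA genes apart from the others. Outside 1 Mb stretches with 3 or more peaks of the set, 32 tRNA genes at a peak remained. In 7 of the 79 genes a non-induced-only peak was also found within 1 kb, and 3 of the 47 peaks had a non-induced peak within 1 kb. A further 14 tRNA genes lay at 6 peaks that the 2 lists share, which the rule leaves out.

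The share of tRNA peaks was larger at higher scores, in small counts and without a test. No interval was computed for it, and tRNA peaks lie in clusters, so they are not independent counts. When the induced-only peaks were split into 4 classes of about equal size by score, those at noncoding borders alone made up 5.57%, 5.80%, 6.92% and 6.55% from the lowest class to the highest, with overlapping intervals. The number at tRNA genes was 6, 9, 14 and 18 in the same order, which is 8.11%, 11.7%, 15.2% and 20.7% of the peaks of the set in each class. Over lncRNA genes the shares were 78.4%, 68.8%, 72.8% and 70.1%.

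Genes of small structural RNAs had 21 peaks. Of a list of 34 structural RNA genes 5 had a peak of this set, 9 had any induced-only peak and 1 had a non-induced-only peak. Over all 2555 small RNA genes the shares were 0.783% at this set and 2.07% at any induced-only peak. Rn7sk, the gene of the 7SK RNA that holds the elongation factor P-TEFb inactive, had 200.17 in a peak that covers its high-coordinate end. Terc, the RNA template of telomerase on chromosome 3, had 102.49 in a peak over the gene, and its nearest coding gene is 18816 bp away. Rnu3b2 (94.3) and Rnu3b1 (71.67), genes of the U3 RNA that acts in ribosomal RNA processing, had peaks of their own on chromosome 11, at chr11:87470730-87471394 and chr11:87442424-87443851. Because U3 and other small nuclear RNA genes have near-identical copies, their peaks carry the same uncertainty as those of tRNA genes.

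Of the 11 peaks at snRNA genes the named models Gm23472 (176.47), Gm24830 (110.66), Gm23143 (85.11) and Gm23137 (71.67, in the peak of Rnu3b1) stood highest beside those above. The snoRNA genes were Snord116l17 (102.32), Snora24 (73.4 and 57.43, inside its host Snhg8) and Snora26 (54.27, inside Dancr). The 5S ribosomal RNA genes n-R5s121, n-R5s122 and n-R5s139 on chromosome 8 had low peaks of 57.27, 53.28 and 50.42. Gm8364, of the class of miscellaneous RNAs, had 2 peaks of 85.91 and 61.89. Of the 21 peaks at small RNA genes 5 reached 100, and the non-induced list had 23 peaks at such genes.

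The 12 miRNA genes lay at 11 peaks with a median score of 60.0. Mir196b, in the Hoxa cluster 1229 bp from the border of the nearest coding gene in the table, Hoxa9, had 166.89 at 293 bp from the gene. Mir193a had 90.91 at 877 bp, Mir6976 inside Srf 72.43, and Mir1905 inside Mex3a 68.38. Gm23363 and Mir199b share a peak of 67.29 inside Dnm1. Mir124a-3, one of the genes of the neuronal miR-124, had 60.00 at 127 bp. Mir6991 had 59.84, Mirlet7i 59.44 at 618 bp, Mir193b 59.10 at 366 bp, Mir5103 56.39 and Mir125b-1 51.44 at 91 bp. Mir196b stands apart with the only score above 100, and the 8 lowest peaks lie between 51.44 and 68.38.

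Of all 1228 miRNA genes 0.977% had a peak of this set and 41 (3.34%) had any induced-only peak. By the cell types in which miRNAs are known, 3 of 27 miRNA genes of fibroblasts and mesenchyme had a peak of this set (Mir196b, Mir199b and Mir125b-1) and 6 had any induced-only peak. Of 16 neuronal miRNA genes 1 had one. Of the lists for blood (8 genes), muscle (10), epithelium (9), liver (4) and endothelium (2), 0 genes had an induced-only or non-induced-only peak. The lists are too short to set this apart from the 3.34% of all miRNA genes, since a 0 in the longest of them, muscle, allows a share of up to 30%. Of 23 miRNA genes of pluripotent and proliferating cells 0 had an induced-only peak, which allows up to 13.0%, and 1 a non-induced-only peak.

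Pseudogenes stood at 38 peaks of the set (11.5%) and at 119 of the non-induced-only peaks at noncoding borders (37.9%). After Rn18s-rs5 the highest were Gm31532 (162.28), Gm15488 (141.55), Gm21978 (135.71), Gm13241 (119.36) and Gm13234 (116.76). The last 3 lie on chromosome 4, where the 3 adjoining 1 Mb stretches from 145 to 148 Mb held 5, 3 and 3 of the 38 pseudogene peaks. By the same rule the non-induced list also had peaks at pseudogenes there, among them Vmn2r-ps15 (179.47) and Gm13226 (121.45). Gm13226 was at a peak of this set too, so the stretch is not particular to the induced list. The transcribed pseudogenes were H2-T10, related to class I histocompatibility genes (113.13), Gpr137b-ps (73.12), Atp10d (66.76) and Mfsd4b3-ps (56.96). A pseudogene can take reads of its parent gene, so these positions are uncertain.

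By chromosome the share of induced-only peaks that belonged to the set ran from 4 of 162 (2.47%) on chromosome 19 to 33 of 258 (12.8%, 8.97 to 17.5) on chromosome 13. Chromosome 13 also holds the most tRNA genes. On chromosomes X and Y and the mitochondrial genome 0 of 11, 0 of 6 and 0 of 4 induced-only peaks belonged to it. The 1 Mb stretch with the most members lay on chromosome 3 from 96 to 97 Mb and held 9 peaks, 6 of them at tRNA genes and 3 at small RNA genes, Terc included. The nearest non-induced peak was a median of 105 kb away, and 8 members had one within 1 kb and 39 within 10 kb. Of the 2547 induced-only peaks at coding borders 21 had one within 1 kb and 196 within 10 kb, at a median of 135 kb. Another induced peak lay within 5 kb of 74 members (22.4%), a share that was not computed for the other induced-only peaks.

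The limits of 1 kb decide membership for a few regions. Just inside the limit to a noncoding gene were the peaks at Gm30682 (997 bp, score 68.98), 9030612E09Rik (989 bp, 85.42) and Gm31365 (984 bp, 71.85). Just outside were those at Gm45470 (1035 bp, 114.23), Mir7688 (1037 bp, 56.65) and Gm51709 (1049 bp, 94.25). Just far enough from a coding border to be kept were the peaks at Otx2os1 (1020 bp from Otx2, 132.27), 5930403L14Rik (1021 bp from Prdm16, 184.06) and Crnde (1031 bp from Irx5, 90.43). Just too close were peaks at 5830448L01Rik (960 bp from Wapl, 86.58), AW046200 (957 bp from Galnt7, 85.54) and Gm39860 (922 bp from Plekha3, 73.22). Another peak, of score 52.35, keeps 5830448L01Rik among the genes of the set.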

How the data were processed

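ChIP-seq peak lists of HA-Fbxl10 from induced and non-induced MEFs were analysed, 1 list per condition. Per the submitters' processing notes the authors used Bowtie2 and mm10, with no version given. The peak names carry the prefix MACS, per the file contents, while the caller's version, its threshold, the use of input and the treatment of reads with several matches were not given in the sources used here. Each deposited list gives positions and a score per peak, whose formula is likewise not given. Scores rank peaks within a list, and whether the scales of both lists are common was not tested. Without read counts in the files, depth and the precision it gives are unknown.

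Peaks sharing at least 1 bp between the lists were removed, as bedtools 2.31.1 also found them (185 induced peaks, difference 0). Distances ran from the nearest edge of a peak to gene starts and ends of RefSeq GRCm38.p6. Groups came from the library titles. The members and gene lists were chosen with earlier results of these data known. Named are the 12 highest lncRNA peaks, the 6 highest of every other biotype, all miRNA genes, the peaks beside each limit, and up to 6 genes per list. Intervals are exact Clopper-Pearson intervals at 95%, those of medians come from order statistics, and a share of 0 has a limit of 3 counts of its total. Where the text says that a 0 allows a share of up to some value, that value is this limit. It can lie below the upper end of the exact interval. Windows on chromosome 18 were not considered for printing. No p-values were computed. The peak classes were tested on 3000 simulated peaks, of which 0 were placed wrongly. Software was SciPy 1.17.1, pandas 2.3.3, numpy 2.4.6, matplotlib 3.10.9 and Python 3.11.15. Of 10 alternatives 8 were planned and 2 were added after seeing the data, as were the results on tRNA genes and CG-rich windows.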

Additional observations from a re-analysis of the deposited data

How the results depend on the processing

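Under 10 alternatives 65 of 90 values moved by less than their interval or by less than 1.5 times and 25 moved further. The order of the induced and non-induced shares turned with the 5 kb window. No paired analysis was possible because each condition has 1 list, and for the same reason no replicate could be left out. With a window of 500 bp to noncoding and coding borders alike the shares were 5.42% with induction and 2.13% without. With 5 kb to both they were 8.09% and 9.33%, with 89 pseudogenes, a median score of 60.51 and a median distance of 877 bp. A score limit at the joint median (61.56) left 206 peaks, 149 lncRNA genes, 21 pseudogenes and a median score of 87.06. Without model and RIKEN clone genes there were 101 peaks (1.90%, non-induced 0.483%), 26 lncRNA genes, 9 pseudogenes and a median score of 73.12. Without the limit on coding genes there were 791 peaks (14.9%), 604 lncRNA genes, 128 tRNA genes with 109 of them nuclear, a median score of 78.02 and 74.0% CG-rich windows. Without 1 Mb stretches of 3 or more members the share was 5.36% and tRNA genes numbered 32. Where an alternative changes the set of peaks or genes by construction the value moves with it, and no other cause was tested. Equal list sizes, other overlap rules and leaving out chromosome Y and the mitochondrial genome moved none of the values. Unknown depth limits all counts, since a border without a peak may lie below the caller's threshold, and with 1 list per condition the lists are compared, not the conditions.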
